A study of Mus with 4 samples.

Results

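A set of 36 dendritic cell genes other than the MHC class II genes was read in liver natural killer (NK) cells from wild-type (WT) and dnTGFbRII mice. They are genes known from conventional type 1 (cDC1), conventional type 2 (cDC2) and plasmacytoid (pDC) dendritic cells, and 35 of the 36 had a row of their own among the 30142 genes measured. Csf2rb, the shared receptor chain for granulocyte-macrophage colony-stimulating factor, interleukin-3 and interleukin-5, had no such row and is not reported here. The list was put together with the differences between these arrays known, so every value below that sets the genotypes against each other is a description and carries no test of the list.

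The samples were NK cells without the DX5 antigen, sorted from livers of female C57BL/6 mice aged 6 to 8 weeks, with 2 arrays from WT and 2 from dnTGFbRII mice and no treatment named for either group. The dnTGFbRII mice carry a TGF-beta receptor II that acts as a dominant negative, and the submitters asked what an inflamed environment does to resident NK cells of the liver. The labels do not name the promoter of the transgene; as background, the widely used line of this name expresses it from Cd4 regulatory sequence, chiefly in T cells. Whether the arrays within a genotype stem from different mice or sorts is not labelled, so p-values and standard errors cover the scatter of these arrays alone and that scatter may be technical.

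Dendritic cells take up, process and present antigen to T cells. The cDC1 subset takes up dead cells and presents their antigens on MHC class I, the cDC2 subset favours presentation to CD4 T cells, and pDC secrete type I interferon on sensing viral nucleic acids. Conventional dendritic cells depend on the growth factor FLT3 ligand, and the liver holds all of these subsets beside its NK cells. Several of the 36 genes are used by other cells too. For example, Itgax is expressed by NK cells, Sirpa by macrophages, and Bcl11a, Spib, Tlr9, Cd83, Cd86 and Ly86 by B cells. These examples are not complete, and the subset under which a gene is listed below does not make it specific to that subset.

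WT replicate 1 stood apart from the other 3 arrays for these genes, and the difference of each dendritic cell gene below is followed by their value without it. The deposited values are on a log2 scale with array medians between 4.20 and 4.26. They carry no detection call. The 23 background control probe sets of the array measured between 2.13 and 6.21, so a value in that range may be background, and the number of arrays limits every estimate. Ncr1 and Klrb1c, used here as NK cell markers, lay between 16.87 and 17.22 on all 4 arrays, which does not measure the purity of the sort. A filter on level, a mean above 4.217, left 16245 genes for the test across all genes. Of the 35 genes 32 passed it, while Xcr1, Snx22 and Spib did not pass. Of those 32, 5 passed through their WT values with a dnTGFbRII mean below the filter: Tlr3, Rab7b, Flt3, Bcl11a and Fgd2. For 23 of the 35 genes both dnTGFbRII values lay at or below 6.21, the highest background control, which leaves the size of their differences uncertain.

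All 35 genes had a lower mean in dnTGFbRII than in WT cells (52.6% of all genes tested did), with a median log2 difference of -0.78 (dnTGFbRII minus WT) against -0.01 over all genes tested. At least 2-fold lower were 13 of the 35, beside 0.363% of all genes tested, and none was at least 2-fold higher, beside 0.529%. In order of difference, the 8 genes lower by at least 4-fold were Il1r2, Clec9a, Plbd1, Cd209a, Wdfy4, Alox5ap, Flt3 and Tlr3. On 22 of the 35 both dnTGFbRII arrays lay below both WT arrays, beside 14.5% of all genes tested. No gene of the 35 passed an adjusted p of 0.05 in limma (percent called over all genes tested: 0), where 525 of 16245 genes had an unadjusted p under 0.05. Without WT replicate 1 the median difference was -0.28, 8 genes were at least 2-fold lower (0.129% of all genes tested), and 8 differences turned positive. Without WT replicate 2 the median was -1.18, 18 genes were at least 2-fold lower (0.8% of all genes tested) and 6 genes passed the adjusted threshold, 5 of them Alox5ap, Cd209a, Clec9a, Il1r2 and Plbd1. That fit keeps the array that stands apart as the lone WT array, assumes that it varies like the dnTGFbRII arrays, and is no support for these genes. In a sorted population read in bulk, fewer cells of a type and less RNA per cell cannot be told apart.

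**Figure D1:**
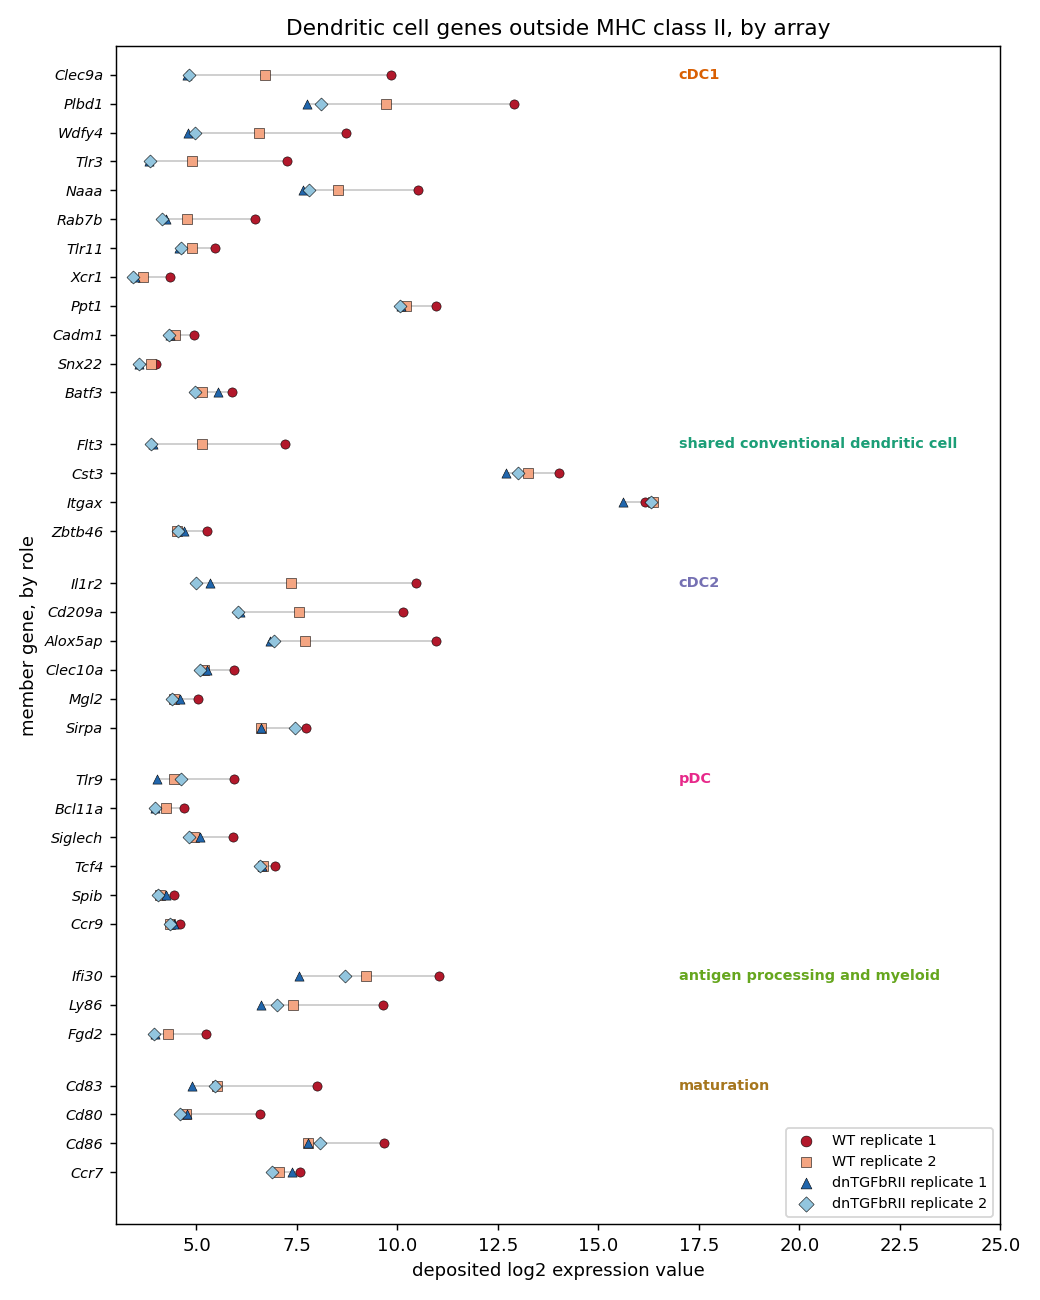
Deposited log2 value (horizontal axis) of each of the 35 measured genes (rows, grouped by role) on WT replicate 1 (dark red circles), WT replicate 2 (light red squares), dnTGFbRII replicate 1 (dark blue triangles) and dnTGFbRII replicate 2 (light blue diamonds). WT replicate 1 is the highest array for 34 of the 35 genes, Itgax being the exception.

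Genes of the cDC1 subset held the widest gaps beside those of cDC2. Clec9a, a lectin receptor that recognises the exposed actin of dead cells, measured 9.83 and 6.71 on WT replicates 1 and 2, and 4.77 and 4.82 on the dnTGFbRII replicates. The dnTGFbRII arrays thus lay close together and below both WT arrays, which were themselves 3.12 apart. The difference between genotypes was -3.48 ± 1.04 (standard error of the limma fit, n = 2 per group), and -1.91 without WT replicate 1. Both dnTGFbRII values lie within the range of the background control probe sets, so the size of the difference is uncertain. Plbd1, which encodes a phospholipase B-like lysosomal protein, ran in the same order at 12.91, 9.72, 7.76 and 8.11 (difference -3.38 ± 1.07, or -1.78 without WT replicate 1).

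Wdfy4, which cDC1 need to present antigens of engulfed cells, measured 8.71 and 6.56 in WT and 4.78 and 4.96 in dnTGFbRII cells (difference -2.76 ± 0.73, or -1.69 without WT replicate 1). Tlr3, the endosomal sensor of double-stranded RNA, measured 7.25 and 4.89 in WT and 3.82 and 3.84 in dnTGFbRII cells (-2.24 ± 0.79, or -1.07 without WT replicate 1). For both genes the dnTGFbRII values lay within the range of the background control probe sets, and the groups did not overlap. Naaa, a lysosomal hydrolase of fatty acid amides, kept a level above that range on every array, at 10.50 and 8.53 against 7.64 and 7.81 (-1.79 ± 0.66, or -0.81 without WT replicate 1). Rab7b, a small GTPase of endosomal traffic, measured 6.46 and 4.76 against 4.24 and 4.15 (-1.41 ± 0.58, or -0.56 without WT replicate 1). Only its value on WT replicate 1 lay above the background control range.

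The other cDC1 genes differed by less than 2-fold. Xcr1, the receptor for the chemokine XCL1 that NK cells secrete, lay at 4.33 and 3.67 in WT and 3.46 and 3.42 in dnTGFbRII cells, all within the background control range (-0.57, or -0.24 without WT replicate 1). Batf3, the transcription factor on which cDC1 development depends, measured 5.89 and 5.13 against 5.54 and 4.97, so its groups overlapped and its difference of -0.26 ± 0.34 was smaller than its standard error. Without WT replicate 1 the Batf3 difference was 0.13, and Batf3 lay within the background control range on every array. Ppt1, a lysosomal thioesterase, measured 10.95 and 10.22 against 10.08 and 10.06 (-0.51 ± 0.27, or -0.15 without WT replicate 1). Tlr11, a sensor of parasite profilin, differed by -0.57 ± 0.23, the adhesion molecule gene Cadm1 by -0.39 ± 0.20 and the sorting nexin gene Snx22 by -0.37, each with no overlap and none above 5.46 on any array. Without WT replicate 1 these differences were -0.28, -0.15 and -0.32. Of the 12 cDC1 genes 11 had both dnTGFbRII arrays below both WT arrays, beside 14.5% of all genes tested, Batf3 being the other. Of these 11, Xcr1, Tlr11, Cadm1 and Snx22 lay within the background control range on every array, where noise alone can leave no overlap. At least 2-fold lower were 6 of the 12, beside 0.363% of all genes tested. The median difference was -0.99, or -0.44 without WT replicate 1.

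Among genes shared by conventional dendritic cells, Flt3 differed most. It encodes the receptor of FLT3 ligand and measured 7.20 and 5.14 in WT and 3.92 and 3.88 in dnTGFbRII cells, with no overlap (difference -2.27 ± 0.69, or -1.24 without WT replicate 1). Only the value on WT replicate 1 lay above the background control range, so the size of the Flt3 difference is uncertain. Cst3, which encodes the protease inhibitor cystatin C, was high on all arrays, at 14.03 and 13.24 against 12.69 and 13.01 (-0.78 ± 0.31, or -0.39 without WT replicate 1). Zbtb46, a transcription factor of the conventional lineage, measured 5.27 and 4.52 against 4.70 and 4.55, so that only WT replicate 1 lay above the dnTGFbRII arrays (-0.27 ± 0.28, and 0.11 without WT replicate 1). Its values lay within the background control range on every array.

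Itgax, the CD11c integrin chain, had the highest values of the list. It measured 16.16 and 16.37 in WT and 15.61 and 16.32 in dnTGFbRII cells, and it was the only gene of the 35 for which WT replicate 1 was not the highest array, a position that WT replicate 1 held in 26.4% of all genes tested. Its difference was -0.30 ± 0.27, or -0.41 without WT replicate 1, and it turned to 0.05 without dnTGFbRII replicate 1.

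Among the 6 cDC2 genes 3 had wide gaps and 3 did not. Of the latter, Clec10a and Mgl2 lay within the background control range on every array, so a difference in them could have been missed. Il1r2, a decoy receptor that binds interleukin-1 without signalling, measured 10.46 and 7.34 in WT and 5.33 and 4.98 in dnTGFbRII cells. Its difference was -3.74 ± 1.05, or -2.18 without WT replicate 1, and its size is uncertain since both dnTGFbRII values lie within the background control range. Cd209a, a lectin of the DC-SIGN family, measured 10.13 and 7.55 against 6.08 and 6.03 (-2.78 ± 0.86, or -1.50 without WT replicate 1). Both dnTGFbRII values of Cd209a also lie within that range, near its upper end. Alox5ap, which encodes the protein that hands arachidonic acid to 5-lipoxygenase in leukotriene synthesis, measured 10.96 and 7.70 against 6.82 and 6.93. The groups of these 3 genes did not overlap, but for Alox5ap WT replicate 1 carried most of the gap: the difference was -2.45 ± 1.09 with both WT arrays and -0.82 without WT replicate 1.

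Clec10a and Mgl2 encode galactose-binding lectins, are close copies that lie next to each other in the reference gene table, and may share probe signal. Clec10a measured 5.93 and 5.18 against 5.27 and 5.09, and Mgl2 measured 5.05 and 4.43 against 4.58 and 4.40. For both, WT replicate 1 lay above the other 3 arrays, and WT replicate 2 lay between the dnTGFbRII arrays. Their differences were -0.38 ± 0.28 and -0.25 ± 0.24, or 0.00 and 0.06 without WT replicate 1. Sirpa, the receptor for the don't-eat-me signal CD47, measured 7.72 and 6.60 in WT and 6.61 and 7.46 in dnTGFbRII cells (-0.12 ± 0.48). Its dnTGFbRII arrays were 0.85 apart, and its difference was 0.44 without WT replicate 1 and 0.30 without dnTGFbRII replicate 1.

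No pDC gene was at least 2-fold lower, beside 0.363% of all genes tested. The 6 genes had a median difference of -0.34, or -0.03 without WT replicate 1. Siglech, a sialic acid-binding lectin that marks pDC, measured 5.90 and 4.95 in WT and 5.08 and 4.81 in dnTGFbRII cells, so its groups overlapped (-0.48 ± 0.35, or 0.00 without WT replicate 1). Tlr9, the sensor of unmethylated CpG DNA, had the widest gap of the 6, at 5.93 and 4.43 against 4.03 and 4.62 (-0.85 ± 0.55). Only WT replicate 1 lay above the other arrays, and the difference was -0.10 without it.

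The transcription factors of the pDC lineage, Tcf4, Bcl11a and Spib, differed by less than 2-fold. Tcf4, which encodes E2-2, measured 6.96 and 6.66 against 6.63 and 6.58 (-0.21 ± 0.16, or -0.06 without WT replicate 1), and Bcl11a measured 4.70 and 4.23 against 3.98 and 3.97 (-0.49 ± 0.20, or -0.26 without WT replicate 1). These were the 2 pDC genes with both dnTGFbRII arrays below both WT arrays, beside 14.5% of all genes tested. Spib differed by -0.12, and the chemokine receptor gene Ccr9 by -0.09 ± 0.15, with overlap in both cases, and both were 0.05 without WT replicate 1. All pDC genes other than Tcf4 lay within the background control range on every array.

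The 3 genes of antigen processing and myeloid function, also active in other antigen-presenting cells, were lower on both dnTGFbRII arrays. Ifi30, the lysosomal thiol reductase that unfolds antigens, measured 11.04 and 9.22 in WT and 7.56 and 8.70 in dnTGFbRII cells (-2.0 ± 0.72, or -1.09 without WT replicate 1). Its dnTGFbRII arrays were 1.14 apart, the only gene of the 35 with a gap of 2-fold or more there, beside 1.9% of all genes tested. Ly86, which encodes the MD-1 partner of the receptor RP105, measured 9.63 and 7.40 against 6.61 and 7.01 (-1.70 ± 0.76, or -0.59 without WT replicate 1). Fgd2, an activator of the GTPase Cdc42, measured 5.24 and 4.30 against 3.98 and 3.94 (-0.81 ± 0.34, or -0.34 without WT replicate 1). Its values lay within the background control range on every array.

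Of the genes of dendritic cell maturation, Cd80 and Cd86 were high on WT replicate 1 alone. The costimulatory ligand gene Cd86 measured 9.67 on WT replicate 1 against 7.77 on WT replicate 2 and 7.77 and 8.08 on the dnTGFbRII arrays. Its partner Cd80 measured 6.57 against 4.73, 4.76 and 4.58 in the same order. Without WT replicate 1 the differences were 0.16 for Cd86 and -0.06 for Cd80, against -0.79 ± 0.65 and -0.98 ± 0.63 with it. Cd83, a surface protein of mature dendritic cells and B cells, measured 8.00 and 5.52 against 4.90 and 5.46 (-1.58 ± 0.85, or -0.34 without WT replicate 1). A second row for Cd83, with a lower mean, gave 5.65 and 4.44 against 4.31 and 4.53, where the groups overlapped (-0.62). Ccr7, the chemokine receptor that guides mature dendritic cells to lymph nodes, measured 7.58 and 7.05 against 7.37 and 6.89, a difference of -0.18 ± 0.27 within the spread, and 0.09 without WT replicate 1.

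**Figure D2:**
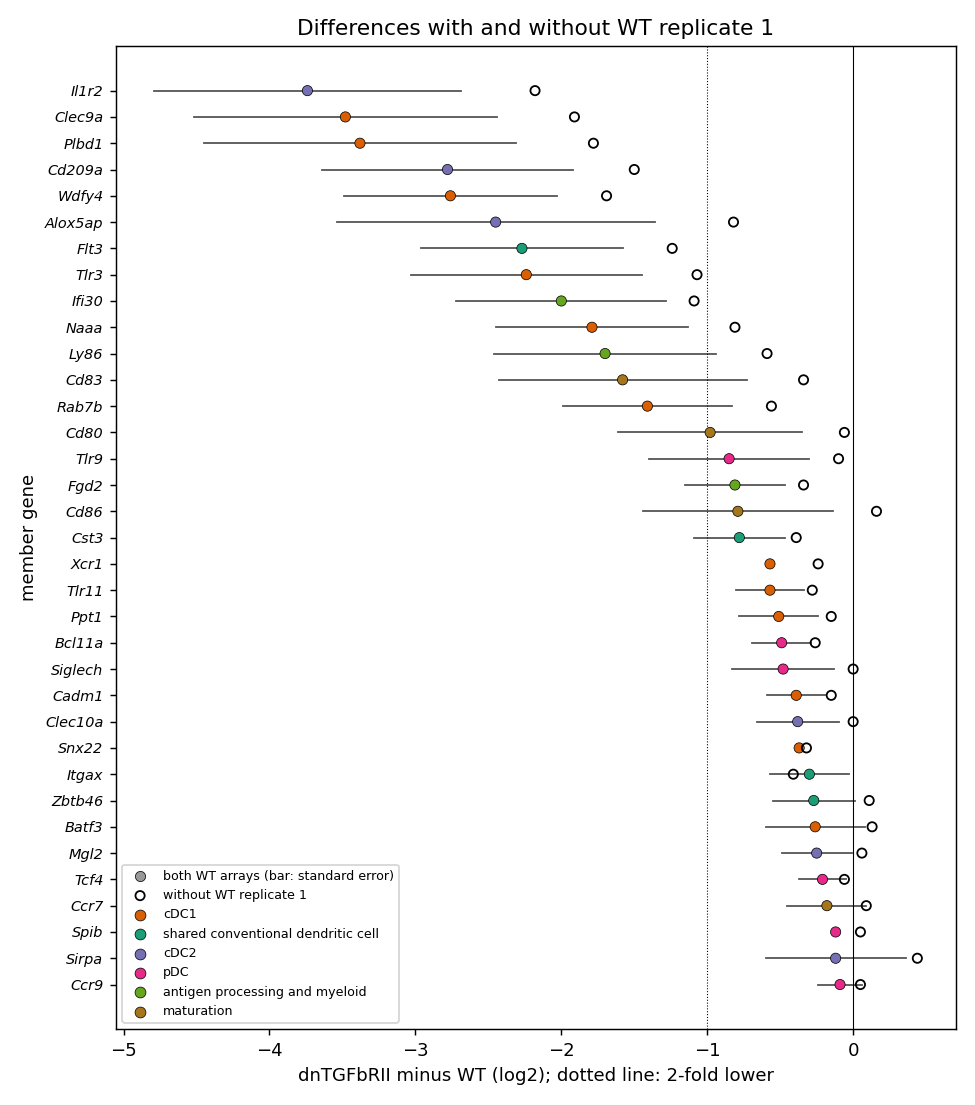
Log2 difference dnTGFbRII minus WT (horizontal axis) for each of the 35 genes (rows, in order of difference). Filled points use both WT arrays, coloured by role, with bars of ± 1 standard error of the limma fit where the gene passed the level filter. Open circles leave out WT replicate 1. The filled points run from -3.74 for Il1r2 to -0.09 for Ccr9, while 8 open circles stand at -1 or below and 8 are above 0.

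The WT arrays were far apart for many of these genes. At least 2-fold higher on WT replicate 1 than on WT replicate 2 were 17 of the 35 genes, beside 1.21% of all genes tested, with a median gap of 0.96 against 0.02 over all genes tested. For 33 of the 35 genes the gap between the WT arrays was wider than that from WT replicate 2 to the dnTGFbRII mean, and the difference between genotypes was larger than the gap between WT arrays for 10. The order WT replicate 1, WT replicate 2, then both dnTGFbRII arrays held for 22 of the 35 genes, beside 8.75% of all genes tested. The dnTGFbRII arrays lay within 0.5 of each other for 29 genes. No share over all genes tested was computed for the counts of 33, 10 and 29, so these describe the list only.

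On WT replicate 1, 13 of the 35 genes were at least 4-fold above the dnTGFbRII mean, beside 33 of 16213 genes tested outside the list. In these 13 genes the WT arrays could be compared on the linear scale. The excess of WT replicate 2 over the dnTGFbRII mean, as a percentage of the excess of WT replicate 1, ran from 4.41% for Cd83 to 17.3% for Ifi30, with a median of 11.2%. Plbd1 (8%), Ly86 (8.25%), Clec9a (8.69%), Il1r2 (9.18%), Tlr3 (11.2%), Cd209a (11.5%), Rab7b (12.6%) and Naaa (12.9%) lay between these ends. Wdfy4 (16.7%) and Flt3 (15.4%) lay higher than these and Alox5ap (4.82%) lower. Over the 33 genes outside the list that met the same limit, the percentage ran from -12.4% to 23.6% with a median of 10.6%. These 33 include 7 genes of MHC class II and 4 of the other dendritic cell genes described below, so they are no independent background. This measure was chosen after the values were seen, and it has no error of its own since each term rests on 1 WT array.

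**Figure D3:**
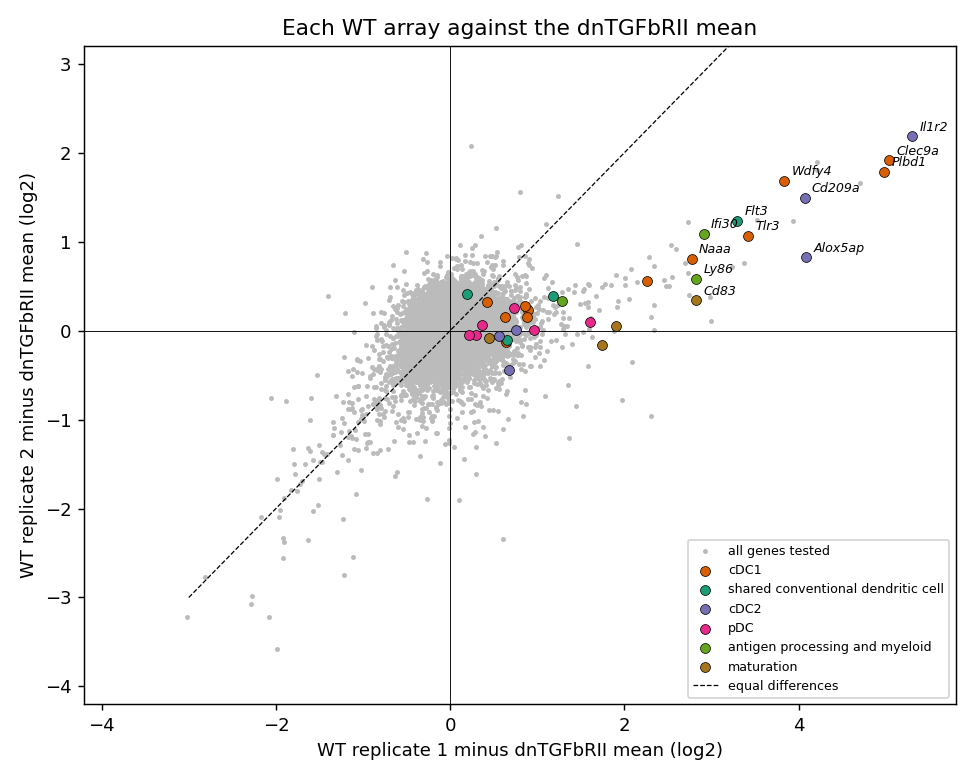
Log2 value on WT replicate 1 (horizontal axis) and WT replicate 2 (vertical axis), each minus the mean of both dnTGFbRII arrays, for all genes tested (grey) and for the 35 genes (coloured by role). The dashed line marks equal differences. The genes with wide gaps lie to the right and below the line, from Cd83 (2.82 and 0.34) to Il1r2 (5.31 and 2.18).

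Other dendritic cell genes came from a list of 55 outside MHC class II, of which 47 were measured. Their median difference was -0.10, with 30 negative, beside 52.6% of all genes tested, and 17 positive. The level filter passed 39 of the 47, and 0 of these were past an adjusted p of 0.05 in limma, as over all genes tested. At least 2-fold lower were 4 of the 47, beside 0.363% of all genes tested, and 1 was at least 2-fold higher, beside 0.529%. That gene was Cd8a, which T cells also express (1.10, or 1.26 without WT replicate 1). Cd24a, a surface glycoprotein of cDC1, measured 8.99 and 6.47 in WT and 5.78 and 5.74 in dnTGFbRII cells (-1.97 ± 0.85, or -0.71 without WT replicate 1). Kmo, an enzyme of tryptophan breakdown, differed by -1.55, Btla, an inhibitory receptor, by -1.30, and Tbc1d8 by -1.26, or by -0.83, -0.60 and -0.51 without WT replicate 1. WT replicate 1 was the highest array for 28 of the 47, beside 26.4% of all genes tested. Without it the median was 0.00 and 0 were at least 2-fold lower. That count says little beside a share of 0.129% over all genes tested. Irf8 and Id2, transcription factors of cDC1 that NK cells also express, differed by 0.17 and 0.06, or by 0.54 and 0.09 without WT replicate 1.

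MHC class II genes, which are not in the list of 36, ran in the same array order. Of 10 measured, 9 followed the order WT replicate 1, WT replicate 2, dnTGFbRII, with a median difference of -2.20, or -1.17 without WT replicate 1. H2-Ab1, for one, lay 2.32 higher on WT replicate 1 than on WT replicate 2, and the excess on WT replicate 2 was 8.62% to 17.2% of that on WT replicate 1 in the 7 class II genes that met the 4-fold limit.

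Markers of macrophages, B cells, neutrophils and endothelial or stellate cells were set beside this order, which 8.75% of all genes tested followed. That share covers genes above the level filter, which 10 of 17 macrophage and monocyte genes and 4 of 10 B cell genes passed. Of the neutrophil genes 4 of 10 passed it, and of the endothelial and stellate cell genes 2 of 9. A gene at background can follow or miss the order through noise alone, so these counts cannot set the cell types apart. Of 17 macrophage and monocyte genes 1 followed the order. Their summed linear intensity ranged from 1468 to 2862 in WT and from 2351 to 3579 in dnTGFbRII cells. Clec4f, Vsig4 and Cd5l of liver macrophages lay between 3.59 and 3.97 on all arrays. Other genes of that list were higher on WT replicate 1 than on WT replicate 2, by 2.01 for Lyz2, 1.15 for Cd68, 0.92 for Adgre1 and 0.90 for Csf1r. Of 10 B cell genes 1 followed it, with summed intensity from 20070 to 25340 in WT and from 24180 to 26390 in dnTGFbRII cells. Of 9 endothelial and stellate cell genes 2 followed it, with a median difference of -0.06. For the B cell genes most of that sum was Ighm, and Ms4a1, Pax5 and Cd79a lay between 3.64 and 4.30. None of 10 neutrophil genes followed it or had WT replicate 1 as the highest array, and their summed intensity was 145 to 149 in WT and 152 to 225 in dnTGFbRII cells. For the 12 cDC1 genes the summed intensity was 12880 and 2772 on the WT arrays against 1700 and 1755 on the dnTGFbRII arrays. Such a sum leans on its highest genes, here Plbd1 on WT replicate 1 (12.91) and Ppt1 on the dnTGFbRII arrays (10.08 and 10.06). For the 6 pDC genes it was 318 and 209 against 205 and 200. Over all 35 genes, where Itgax is highest, it was 112500 and 99410 against 59860 and 93310.

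Most T cell markers lay the other way, with 9 of 11 measured genes above both WT arrays on each dnTGFbRII array and a median of 0.51. The share over all genes tested was 12.6%, which covers genes above the level filter, and 9 of the 11 passed it. Cd3g, the highest of the 11, was lower in dnTGFbRII cells, at 15.90 and 15.81 in WT against 15.47 and 15.34 (-0.45 ± 0.13). The summed intensity of the T cell list was 65000 and 59660 on the WT arrays against 62740 and 52190 on the dnTGFbRII arrays. The 12 NK cell genes had a median of -0.05 and 9 measured genes of liver-resident NK cells one of -0.13. In each of these lists 1 gene was at least 2-fold higher in dnTGFbRII cells and 0 were at least 2-fold lower. Eomes of the NK cell list measured 6.78 and 6.81 in WT and 10.30 and 8.87 in dnTGFbRII cells (2.79 ± 0.49). Il7r of the resident list measured 10.57 and 11.18 against 12.52 and 11.84 (1.31 ± 0.33). Alb, a hepatocyte gene, was highest on WT replicate 2 (6.62, against 4.79 on WT replicate 1 and 4.49 and 4.60 on the dnTGFbRII arrays), unlike the dendritic cell genes. The part of other cells in the differences of the 35 genes was not tested.

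**Figure D4:**
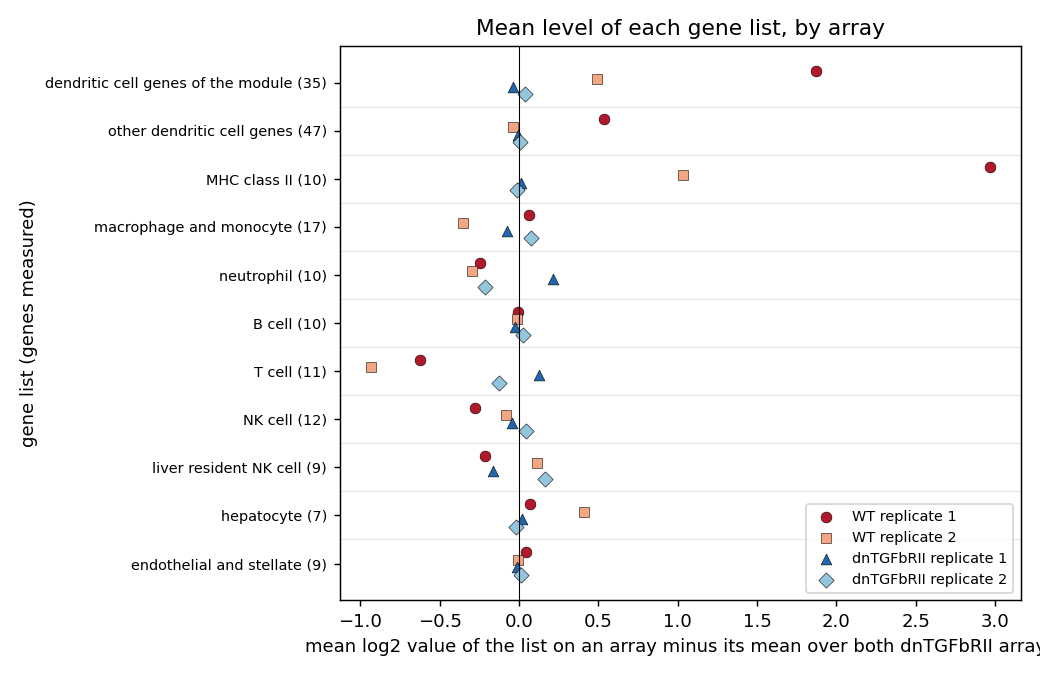
Mean log2 value of each gene list on each array, minus its mean over both dnTGFbRII arrays (horizontal axis), with the number of genes measured beside each list name. For the dendritic cell genes the means on WT replicates 1 and 2 and dnTGFbRII replicates 1 and 2 were 7.84, 6.46, 5.93 and 6.01, and for MHC class II genes 10.12, 8.19, 7.17 and 7.14; both lists have WT replicate 1 far to the right of the other arrays.

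Among annotated genes outside the 36, the 12 with the most negative differences held 6 of MHC class II (H2-Eb1, H2-Ab1, H2-Aa, H2-DMb1, H2-DMb2 and H2-Ob) and Cd24a. The other 5 were Ctsh, Anpep, Tbc1d9, Ptgs2 and Rnase6. Ctsh, a lysosomal cathepsin, measured 10.53 and 7.92 in WT and 6.98 and 7.34 in dnTGFbRII cells (-2.06 ± 0.88, or -0.76 without WT replicate 1). Anpep, the aminopeptidase CD13 of myeloid cells, measured 7.10 and 5.60 against 4.33 and 4.43 (-1.97 ± 0.51, or -1.22 without WT replicate 1). Ptgs2, the inducible cyclooxygenase, measured 7.73 and 6.15 against 4.81 and 5.57 (-1.75 ± 0.59, or -0.96 without WT replicate 1). Every one of the 12 was highest on WT replicate 1 and higher on WT replicate 2 than on both dnTGFbRII arrays. Over all genes tested 8.75% followed that order. The 12 were picked for their low dnTGFbRII minus WT difference, so this count is partly set by the choice and is no support for the order. Of 15 genes tested that were at least 4-fold lower in dnTGFbRII cells, 8 belonged to the 35 dendritic cell genes and 6 to MHC class II.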

How the data were processed

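RNA was hybridised to 4 Affymetrix arrays. The deposited table holds log2 expression values, which the authors made with RMA in Affymetrix Expression Console, per the submitters' processing notes; their versions and the build were not given in the sources used here. The values were used without further normalization. Of 72688 rows, 30604 name exactly 1 gene, 2146 name several and 39938 are not listed in the platform annotation. Older symbols were brought up to date by Entrez identifier from a reference gene table (GRCm38.p6, names and neighbours only), and each gene was read from the row naming only that gene with the highest mean. Genes whose mean exceeded 4.217 (the median row) entered limma 3.58.1 (R 4.3.3, lmFit, then eBayes, 2.54 prior and 2 residual degrees of freedom, 2-sided, Benjamini-Hochberg over 16245 genes), after the script was tested on simulated data. With 2 arrays a group, the smallest p of an exact 2-sided permutation test is 0.333. At most 0.044% of values were identical between arrays. Replicate numbers come from the titles.

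The 36 genes, the comparison lists and the tests were chosen with earlier results of these data known. Named genes are the 36, up to 4 of each list by size of difference (others named, among them Irf8 and Id2, markers at background and genes seen on single arrays, were chosen after their values were seen), and the 12 annotated genes outside the list with the most negative difference. Predicted genes, pseudogenes and small RNAs were passed over. Sequences were not used here. Alternatives were the level filter, 2 rescalings, averaged rows, prior, block, threshold and each array left out.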

Additional observations from a re-analysis of the deposited data

How the results depend on the processing

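The count of genes past an adjusted p of 0.05 in limma was 0 and stayed 0 with no filter, a filter at the 75th percentile (6.583), repeated quantile normalization, median centring, averaged rows, a trended and robust prior and a false discovery rate of 0.1; leaving out 1 array gave 0 to 6. With the replicate block it was also 0, with 1467 genes at an unadjusted p under 0.05 against 525. Same-numbered arrays deviated together (r = 0.51 across genes), but with only 2 numbers, and no label saying what they mark, they were not taken as pairs. Leaving out 1 array gave a median difference of -1.18 to -0.28, 8 to 18 genes at least 2-fold lower and 23 to 34 with both dnTGFbRII arrays below both WT arrays, counts that leaving out an array can raise by construction. The filter at the 75th percentile kept fewer of the 35 genes and so gave a median of -1.25, 7 at least 2-fold lower, 10 without overlap and 9 at least 2-fold higher on WT replicate 1 than on WT replicate 2. The other rescalings and averaged rows left each of these counts within 1.5 times and the median between -0.81 and -0.78. Of 294 single-gene differences under the alternatives 282 kept their sign. The other 12 belonged to 9 genes and arose from leaving out an array: WT replicate 1 for Batf3, Zbtb46, Mgl2, Sirpa, Spib, Ccr9, Ccr7 and Cd86, dnTGFbRII replicate 1 for Itgax and Sirpa, and dnTGFbRII replicate 2 for Batf3 and Ccr7. Signal near the background control range limits the lower genes: 14 of the 35 lay at or below 6.21 on all 4 arrays.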

Other observations

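At least 4-fold higher on WT replicate 1 than on WT replicate 2 were 32 genes tested, of which 10 belong to the dendritic cell genes described above, 5 to MHC class II, 1 to the other dendritic cell genes and 1 to the macrophage and monocyte list. The other 15 were in no list, and the genes named here were chosen after their values were seen. Some ran in the order of the dendritic cell genes, such as Cxcl16, a membrane-bound chemokine, at 9.60 and 6.99 in WT and 6.83 and 6.40 in dnTGFbRII cells, and Marcks at 7.70 and 5.36 against 4.95 and 4.97. Others were as high or higher on the dnTGFbRII arrays as on WT replicate 2. Clec7a, the beta-glucan receptor Dectin-1, measured 9.77 and 6.50 in WT and 7.24 and 7.69 in dnTGFbRII cells, and Cybb, a subunit of the phagocyte NADPH oxidase, 10.46 and 7.89 against 8.95 and 9.25. Lyz2, the lysozyme of myeloid cells, was highest on dnTGFbRII replicate 2, at 10.23 and 8.23 in WT and 9.25 and 11.02 in dnTGFbRII cells. Cxcr4, the receptor for CXCL12, measured 11.13 and 8.17 against 10.90 and 10.13, so that WT replicate 2 alone lay low.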
